A study of Mus musculus with 6 samples.

Results

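In all, 9 intermediate filament genes were followed in EpH4 monolayers: the luminal keratins Krt7, Krt8, Krt18 and Krt19, the basal keratins Krt5, Krt14, Krt15 and Krt17, and Vim, which encodes vimentin. They were taken by name from the array's probe annotation, through probe sets that carry no other gene symbol, and made up 9 of 20848 measured genes and 78 of 213361 such probe sets. EpH4 is a cell line of mouse mammary epithelium that grows as a polarised sheet. Monolayers held confluent for 7 days received TGF-β3 at 1 ng/ml (3 arrays) or vehicle (3 arrays) for 24 hours in serum-free medium, and each array carried RNA pooled from 3 wells of 1 experiment. Both groups were of the same cell line, with no other agent or genetic change named.

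Keratins form filaments only as pairs of a type I and a type II chain, which resist mechanical stress and are anchored at desmosomes and hemidesmosomes. In the mammary gland, Krt8 and Krt18 are the usual pair of luminal cells and Krt5 and Krt14 the usual pair of basal and myoepithelial cells, so the set is widely used to tell these lineages apart. Vimentin builds the filaments of mesenchymal cells, and a shift from keratin to vimentin filaments is a classical sign of epithelial-mesenchymal transition, for which TGF-β is a known inducer. The comparison asks whether filament genes moved in either direction after this treatment in a sheet with established tight junctions.

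TGF-β ligands act through SMAD transcription factors, so the sequences around the start sites of the luminal pair, of a basal keratin and of Vim are shown with SMAD, AP-1 and TATA motifs in capitals. The windows run 5′ to 3′ on the gene's strand from 250 bases before to 50 bases after the annotated start, from RefSeq on GRCm38.p6, and 6 of the 9 genes had an entry. Krt8 lies at chr15:102004293-102004592 on the minus strand, Krt18 at chr15:102027966-102028265 on the plus strand, Krt5 at chr15:101712856-101713155 on the minus strand and Vim at chr2:13574061-13574360 on the plus strand.
Krt8: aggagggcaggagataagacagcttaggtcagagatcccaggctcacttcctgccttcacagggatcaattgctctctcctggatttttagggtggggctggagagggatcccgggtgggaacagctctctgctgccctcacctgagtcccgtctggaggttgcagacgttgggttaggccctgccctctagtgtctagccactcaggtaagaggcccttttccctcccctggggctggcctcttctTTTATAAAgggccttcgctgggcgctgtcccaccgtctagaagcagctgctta
Krt18: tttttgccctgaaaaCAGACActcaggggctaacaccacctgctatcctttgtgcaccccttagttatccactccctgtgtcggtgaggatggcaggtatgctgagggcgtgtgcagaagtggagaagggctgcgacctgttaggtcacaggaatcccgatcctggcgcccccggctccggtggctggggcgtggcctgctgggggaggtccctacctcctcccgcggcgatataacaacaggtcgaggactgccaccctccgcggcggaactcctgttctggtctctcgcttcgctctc
Krt5: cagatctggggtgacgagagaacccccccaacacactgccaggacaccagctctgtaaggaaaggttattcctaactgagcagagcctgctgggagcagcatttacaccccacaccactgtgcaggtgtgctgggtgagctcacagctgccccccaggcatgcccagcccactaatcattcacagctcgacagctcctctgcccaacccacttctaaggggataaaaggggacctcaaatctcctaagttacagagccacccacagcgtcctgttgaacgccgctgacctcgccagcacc
Vim: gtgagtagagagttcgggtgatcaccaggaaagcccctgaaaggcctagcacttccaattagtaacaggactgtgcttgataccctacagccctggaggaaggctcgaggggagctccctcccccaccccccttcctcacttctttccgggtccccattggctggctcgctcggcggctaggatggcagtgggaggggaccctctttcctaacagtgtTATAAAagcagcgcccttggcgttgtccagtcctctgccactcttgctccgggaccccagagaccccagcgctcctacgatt
On both strands, the SMAD core motif CAGACA matched Krt18 at 1 position and is held by 21.0% of 32851 windows of the same length. The windows of Krt7 and Krt14, not printed here, also held 1 CAGACA match each. The Krt14 window does not sit at the annotated gene start. The TATA box core TATAAA matched Krt8 at overlapping positions on the 2 strands, which span the annotated start. It matched Vim at 1 position and is held by 13.6% of windows. The palindromic SMAD element GTCTAGAC (0.213% of windows) and the AP-1 site TGANTCA (7.81%) matched none of the 4 printed windows. Krt5 held no match to any of the 4 motifs. These are matches of letters within the windows and carry no measurement of binding.

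Among the 6 arrays, vehicle 3 stood apart: its gene signals had an SD of 1.58, against 1.68 to 1.74 on the others. Values without it are given beside some of the results that it moved.

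No keratin and no vimentin difference passed the test. In limma, with p adjusted over all genes, 0 of the 9 genes passed, beside 0.0% of all genes (0 of 20848; 1076 genes at an unadjusted p under 0.05, none of them among the 9), and all 9 had overlapping groups, where 12.9% of all genes did not overlap. Of these, 3 were higher with TGF-β3 and 6 lower, by 0.18 log2 units or less. With the sample number as a block in the fit, 0 of the 9 passed, beside 0.00959% of all genes. Without vehicle 3, 5 of the 9 were lower and 0 passed (lowest limma adjusted p = 0.986). With all arrays their median absolute difference was 0.061, against 0.096 over all genes. The 95% interval of the difference stayed within 1.5-fold (0.58 log2 units) in either direction for all 9, taken gene by gene. The share of all genes for which this held was not counted. The interval reached a median of 0.193 either side of the difference for the 9 and 0.218 over all genes. Of all genes, 94.6% had an absolute difference under 0.25, so small differences were not particular to the 9.

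**Figure D1:**
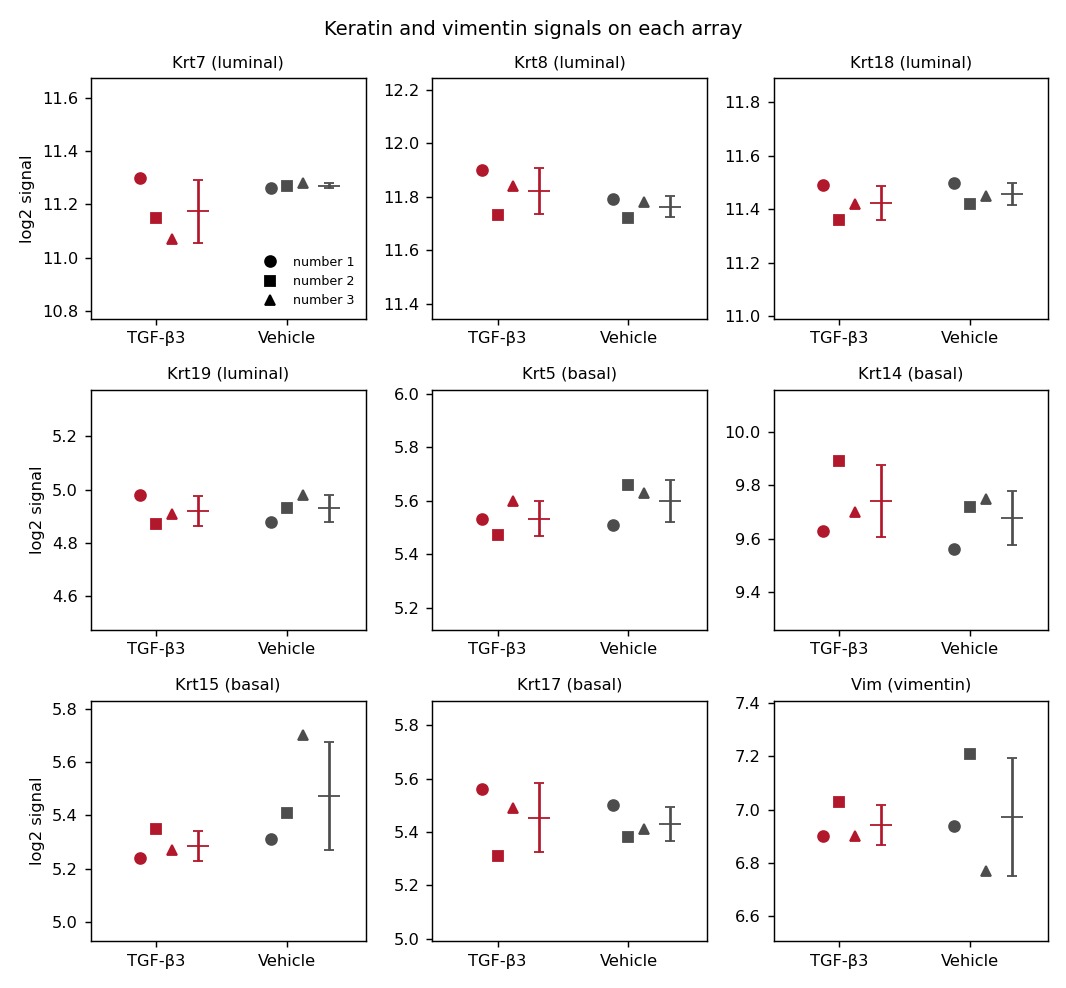
Log2 signal (y axis, each panel 0.9 units high) of the 9 genes on the 3 TGF-β3 arrays (red, left) and the 3 vehicle arrays (grey, right). Marker shapes give the number in the sample title, and bars give the mean and SD of each group. The groups overlap in all 9 panels, and Krt15 on vehicle 3 (5.70) and Vim on vehicle 2 (7.21) sit above the other arrays.

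Signals of different genes come from different probes and are not ranked against one another. As marks of the array's scale, the quartiles of the gene means over the 6 arrays were 5.06, 6.08 and 7.71. Krt7, Krt8, Krt18 and Krt14 lay above the upper mark on every array, Vim lay between the middle and upper marks, and Krt5, Krt15 and Krt17 lay between the lower and middle ones. Krt19 lay below the lower mark. The background level of each probe is unknown, so whether the 4 low keratins were transcribed cannot be told from these signals.

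The luminal pair stayed close to its vehicle level. Krt8, the type II chain of simple epithelia, had log2 signals of 11.90, 11.73 and 11.84 in the TGF-β3 arrays 1, 2 and 3, against 11.79, 11.72 and 11.78 in the vehicle arrays with those numbers. Arrays numbered 2 were the lowest in both groups, and the groups overlapped. The difference was 0.06 (SE 0.08, limma adjusted p = 0.761), with the TGF-β3 array higher in 3 of 3 same-numbered pairs. Krt18, the type I partner of Krt8, had signals of 11.49, 11.36 and 11.42 with TGF-β3, against 11.50, 11.42 and 11.45 with vehicle. Here too number 2 was lowest in each group, and the TGF-β3 array was lower in 3 of 3 pairs. Its difference was -0.03 (SE 0.08, limma adjusted p = 0.858). A common sign in all 3 pairs was seen in 3 of the 9 genes (Krt8, Krt18 and Krt15), where 42.0% of all genes have one.

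Because the proteins of Krt8 and Krt18 assemble together, their signals were also set against each other within each array. The offset of Krt8 over Krt18 was 0.401, 0.376 and 0.417 log2 units in the TGF-β3 arrays, against 0.290, 0.298 and 0.321 in the vehicle arrays. These values did not overlap, and they differed by 0.095, with the size of the offset itself set by the probes. Quantile normalization left the difference at 0.100 with no overlap, and the brightest probe set of each gene gave 0.049 with overlap. Of the 36 pairs of members, 3 did not overlap in this way (beside 11.7% of all pairs of genes), the others being Krt7 with Krt8 and Krt14 with Krt15. The offset was chosen after its values were seen and has no test.

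Krt7 and Krt19 completed the luminal set. Krt7, a type II keratin of simple and ductal epithelia, had signals of 11.30, 11.15 and 11.07 in the TGF-β3 arrays, against 11.26, 11.27 and 11.28 in the vehicle arrays. The TGF-β3 arrays spread more (SD 0.12, n = 3) than the vehicle arrays (SD 0.01, n = 3), and TGF-β3 1 lay above all vehicle arrays while TGF-β3 2 and 3 lay below them. The difference was -0.10 (95% interval -0.29 to 0.09, limma adjusted p = 0.686). Krt19, a short type I keratin of ductal and luminal cells, had low signals of 4.98, 4.87 and 4.91 with TGF-β3, against 4.88, 4.93 and 4.98 with vehicle. Its groups covered nearly the same range, with a difference of -0.01 (SE 0.08, limma adjusted p = 0.964) that was 0.015 without vehicle 3.

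Basal keratins showed small differences of both signs. Krt14, the type I chain of basal cells, was the basal member with signals above the upper mark: 9.63, 9.89 and 9.70 in the TGF-β3 arrays, against 9.56, 9.72 and 9.75 in the vehicle arrays. Number 1 was lowest in both groups, and the difference was 0.06 (SE 0.10, limma adjusted p = 0.793). Its partner Krt5 had signals of 5.53, 5.47 and 5.60 with TGF-β3, against 5.51, 5.66 and 5.63 with vehicle. The Krt5 groups overlapped, with a difference of -0.07 (SE 0.08, limma adjusted p = 0.75). Krt17, a type I keratin of basal cells that is also known from injured epithelium, had signals of 5.56, 5.31 and 5.49 with TGF-β3, against 5.50, 5.38 and 5.41 with vehicle. The TGF-β3 arrays held both its highest and its lowest value, and the difference was 0.02 (SE 0.09, limma adjusted p = 0.917).

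Krt15 had the largest difference of the 9, and vehicle 3 carried most of it. This type I keratin of basal cells had signals of 5.24, 5.35 and 5.27 in the TGF-β3 arrays, against 5.31, 5.41 and 5.70 in the vehicle arrays. Vehicle 3 lay above the other 5 arrays, which spanned 5.24 to 5.41. The TGF-β3 mean was 5.29 ± 0.06 and the vehicle mean 5.47 ± 0.21 (SD, n = 3 each), a difference of -0.18 (95% interval -0.43 to 0.06, limma adjusted p = 0.684). The within-pair differences were -0.07, -0.05 and -0.43 for numbers 1, 2 and 3, and without vehicle 3 the difference was -0.07. Genes were split by mean signal into 4 equal bins. On vehicle 3 the median deviation from the 6-array mean was 0.127 in the lowest bin, 0.121 in the second, which holds Krt15, and -0.152 in the highest. The part of this array-wide offset in the Krt15 value was not tested. Krt5 and Krt17 lie in the same bin as Krt15. On vehicle 3, Krt5 had 5.63, beside its highest value of 5.66 on vehicle 2. Krt17 had 5.41 there, beside its highest value of 5.56 on TGF-β3 1. Of all genes, 31.6% had their highest value on vehicle 3.

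**Figure D2:**
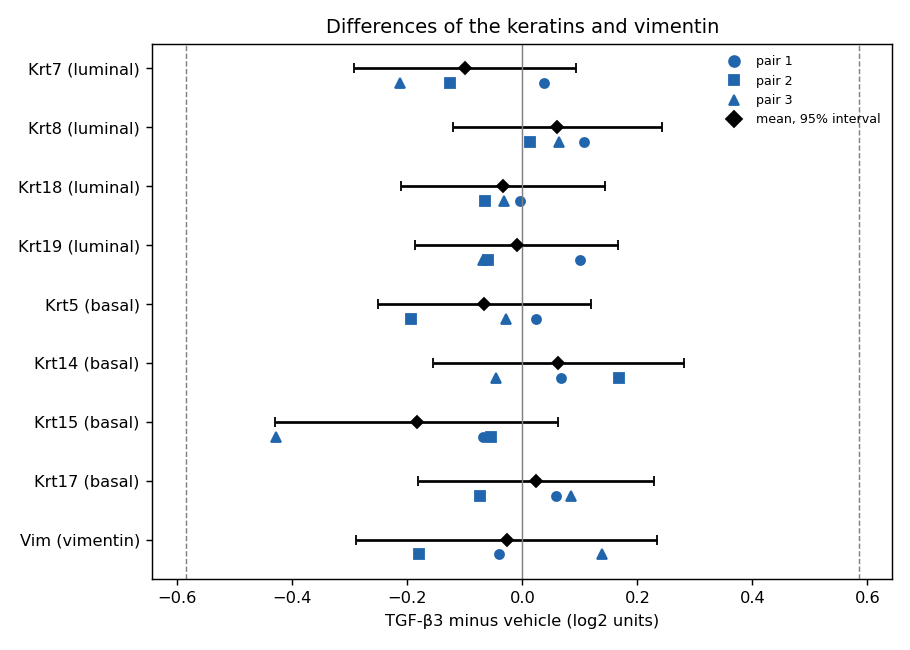
TGF-β3 minus vehicle in log2 units (x axis) for the 9 genes (y axis). Black diamonds and bars give the difference of the group means and its 95% interval from limma, and blue markers give the difference within each same-numbered pair. Dashed lines mark 1.5-fold in either direction. All 9 intervals include 0 and stay inside the dashed lines, and the Krt15 value of pair 3 (-0.43) lies apart from pairs 1 and 2.

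Vimentin showed no difference between the groups beyond their spread. Vim had signals of 6.90, 7.03 and 6.90 in the TGF-β3 arrays, against 6.94, 7.21 and 6.77 in the vehicle arrays. Both the highest and the lowest Vim values came from vehicle arrays, and number 2 was the highest of each group. The TGF-β3 mean was 6.95 ± 0.07 and the vehicle mean 6.97 ± 0.22 (SD, n = 3 each). The difference was -0.03 (95% interval -0.29 to 0.23, limma adjusted p = 0.924), with pair differences of -0.04, -0.18 and 0.14, and it was -0.13 without vehicle 3 and 0.092 without vehicle 2. In linear terms the mean was 0.981 of vehicle, with an interval from 0.819 to 1.18.

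Luminal and basal members were then compared by their responses within each pair. The luminal keratins averaged 0.060, -0.060 and -0.062 in pairs 1, 2 and 3, and the basal keratins averaged 0.020, -0.039 and -0.105. On average, both classes were higher with TGF-β3 in pair 1 and lower in pairs 2 and 3. In pair 3 the basal mean was carried by Krt15 (-0.43), beside -0.03 for Krt5, -0.05 for Krt14 and 0.08 for Krt17. Luminal minus basal came to 0.040, -0.021 and 0.043, with a mean of 0.021 and an SD over the pairs of 0.036. The classes thus differed by less than the spread between pairs, and luminal minus basal was -0.009 without vehicle 3. Each class had a median member difference of -0.022, beside 0.011 over all genes. The classes were spread unevenly over the bins of mean signal. Krt7, Krt8, Krt18 and Krt14 lie in the highest bin, where the median difference of all genes was 0.090. Krt5, Krt15 and Krt17 lie in the second (-0.066) and Krt19 in the lowest (-0.082). The part of signal level in the comparison of the classes was not tested. No p is given for a score over members.

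The 9 genes were also compared between the numbers 1, 2 and 3 of the sample titles, with both groups averaged. For each of the 9, the range over the 3 number means was larger than the absolute TGF-β3 difference, as it was in 76.2% of all genes. The range of 3 means is a wider measure than the difference of 2, so the sizes are not directly comparable. Vim had the largest such range, with number means of 6.92, 7.12 and 6.84. Krt14 came to 9.60, 9.81 and 9.73 and Krt15 to 5.27, 5.38 and 5.49. The ranges of Krt7, Krt8, Krt18 and Krt19 were 0.11, 0.11, 0.11 and 0.05. In the limma F test of the number term, 0 of the 9 genes passed, beside 1.18% of all genes, and the lowest adjusted p of the 9 was 0.329, for Vim. The labels do not say which experiment each number stands for.

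Each of the 9 genes was covered by 4 to 13 probe sets, each reading another stretch of the transcript, and 0 of the 78 passed in limma over all probe sets (0.0% of all probe sets passed). The probe sets of a gene read the same RNA and are not replicates. Krt8 and Krt14 were higher with TGF-β3 in all their probe sets, 4 of 4 with differences of 0.05 to 0.08 and 8 of 8 with 0.02 to 0.13. Krt7 was lower in 8 of 10 and Krt18 in 6 of 7. One Krt7 probe set, with the lowest mean signal of the 10 (8.30), had 8.18, 8.14 and 7.94 in the TGF-β3 arrays, against 8.23, 8.77 and 8.53 in the vehicle arrays. Those values did not overlap, and the difference was -0.42 (SE 0.18, limma adjusted p = 0.997). Over the 78 probe sets, 6 did not overlap between the groups, beside 8.9% of all probe sets.

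**Figure D3:**
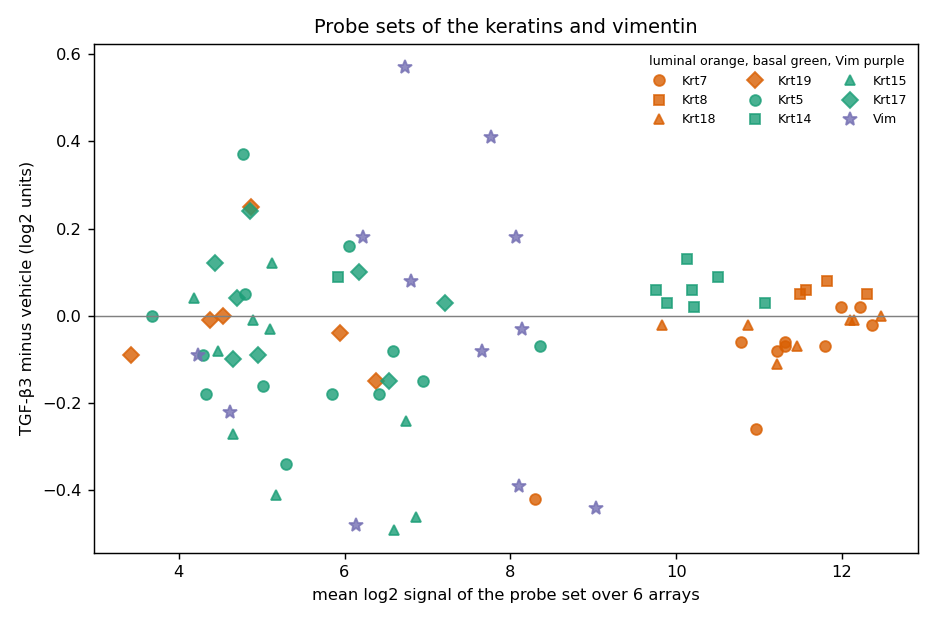
Each point is 1 of the 78 probe sets, with its mean log2 signal over the 6 arrays (x axis) and its TGF-β3 minus vehicle difference in log2 units (y axis). Colours give luminal keratins, basal keratins and Vim, and shapes give the gene. Krt8 and Krt14 points all lie above 0, and Vim points run from -0.48 to 0.57.

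Vim probe sets disagreed with one another more than those of the bright keratins. Of its 12, 5 were higher and 7 lower with TGF-β3, between -0.48 and 0.57. The probe set at 0.57 had signals of 7.04, 6.88 and 7.12 in the TGF-β3 arrays, against 6.48, 6.80 and 6.07 in the vehicle arrays, without overlap. Another with a mean signal of 9.03 had 8.25, 9.12 and 9.07 with TGF-β3, against 8.60, 9.83 and 9.32 with vehicle. In that probe set number 1 was the lowest and number 2 the highest of each group. Number 2 was highest in both groups in 5 of the 12 Vim probe sets and in 5 of the 8 Krt14 probe sets, where 14.8% of all probe sets show this order. It held in 0 probe sets of Krt8, Krt18, Krt19 and Krt17, and in 16 of the 78 over all members. For Vim the count restates the gene value, in which number 2 was also highest in each group. Averaging over probe sets therefore sums readings of opposite sign for Vim, and the difference depended on how they were combined. In place of -0.03, it was 0.129 with the median of the probe sets and -0.437 with the brightest probe set alone. The median of the 12 single differences was -0.058. With the probe sets averaged as before and array weights in limma, which change the weight of the arrays only, the difference was -0.175. None of these passed in limma.

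The Krt15 reading on vehicle 3 came from part of its probe sets. Vehicle 3 was the highest array in 6 of 10, which restates the gene value, since Krt15 was looked at for its level on that array. Over all members it was highest in 15 of the 78, beside 20.4% of all probe sets. One of them had 6.48, 6.55 and 6.83 in the TGF-β3 arrays, against 6.18, 6.58 and 7.82 in the vehicle arrays. A second had 6.35, 6.37 and 6.33 with TGF-β3, against 6.47, 6.54 and 7.52 with vehicle. In both, vehicle 3 stood well above every other array, while vehicle 1 and 2 were near the TGF-β3 arrays.

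**Figure D4:**
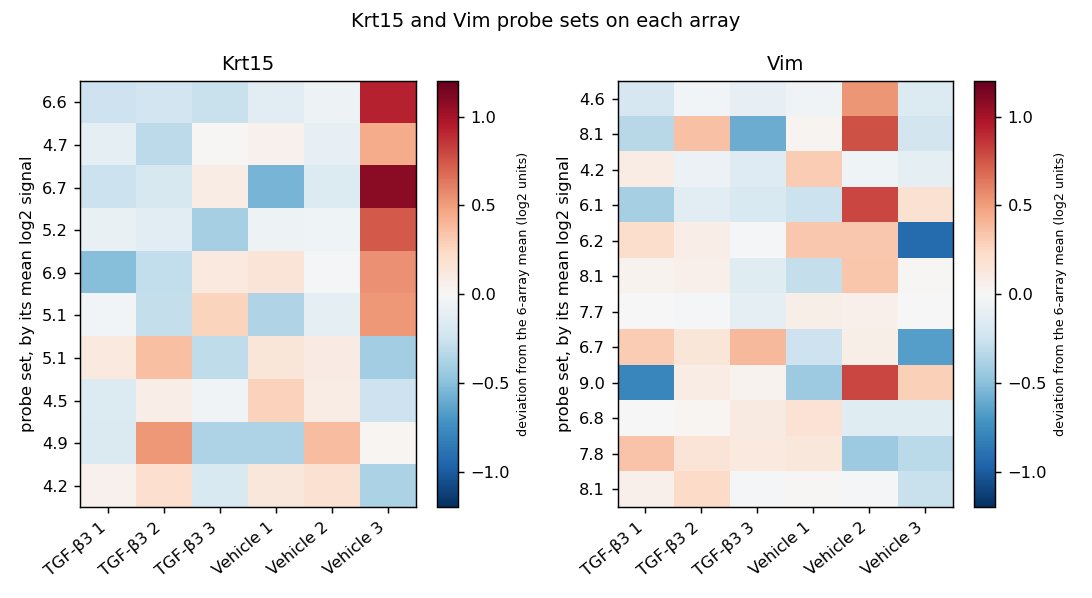
Deviation of each Krt15 probe set (left) and each Vim probe set (right) from its own 6-array mean, in log2 units (colour), on the 3 TGF-β3 and 3 vehicle arrays (x axis). Rows are probe sets, labelled by mean log2 signal. Vehicle 3 is the highest array in 6 of 10 Krt15 rows, and number 2 is highest in both groups in 5 of 12 Vim rows.

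For Krt7, Krt15 and Vim, the genes with the closest pattern were sought over the 6 arrays, by the root mean square of the gap between deviations from each gene's own mean. Closest to Krt7 were Olfr948 (0.012 log2 units), Shisa3 (0.014) and Tet1 (0.025). Closest to Krt15 were Olfr710 (0.016), Olfr61 (0.018) and Wdr95 (0.018). Their highest value was also on vehicle 3, which follows from the choice by pattern and is no separate result. Olfr710 and Olfr61 encode olfactory receptors, and their mean signals were 5.06 and 4.23. Closest to Vim were Kank3 (0.024), Wfdc2 (0.027) and Tet3 (0.029). With 20848 genes and 6 arrays, close matches are many. Among the 9 genes themselves, Krt18 was the nearest to Krt7 (0.067), at rank 633 of all genes.

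Further keratins of stratified and specialised epithelia were mostly lower with TGF-β3, without any passing. Of 15 measured, 14 were lower and 1 higher (0 passed in limma, 2 at an unadjusted p under 0.05, beside 5.16% of all genes), with a median difference of -0.126 beside 0.011 over all genes, and 47.2% of all genes were lower. Krt6a, a type II keratin of activated and stressed epithelium, had signals of 5.60, 5.77 and 5.52 in the TGF-β3 arrays, against 5.93, 6.16 and 5.95 in the vehicle arrays. Every TGF-β3 array lay below every vehicle array. The difference was -0.38 (SE 0.10, limma adjusted p = 0.684) and -0.42 without vehicle 3. Krt6a and Krt6b are near-identical copies and may share probes, and Krt6b differed by -0.28 with all arrays and by -0.135 without vehicle 3. Its groups overlapped, and its pair differences were 0.21, -0.53 and -0.51. Krt13 and Krt4, a pair of stratified mucosa, differed by -0.27 (SE 0.11) and -0.21 (SE 0.09), and without vehicle 3 by -0.197 and -0.124. Krt79 differed by -0.18 (SE 0.09), and by -0.154 without vehicle 3. Groups did not overlap in 4 of the 15, all lower, where 6.05% of all genes were lower without overlap. These were Krt6a, Krt4, Krt79 and Krt20.

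Signal level moved with this direction. Of the 15 keratins, 12 lay below the middle mark of 6.08, and the 4 bins of genes by mean signal had median differences of -0.082, -0.066, 0.097 and 0.090 from the lowest to the highest. Without vehicle 3 the bins had -0.033, -0.020, 0.054 and 0.035. The 15 keratins then had a median of -0.124, with 11 of 15 lower, and after quantile normalization a median of -0.129, with 14 lower. The part of signal level in the difference was not tested.

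**Figure D5:**
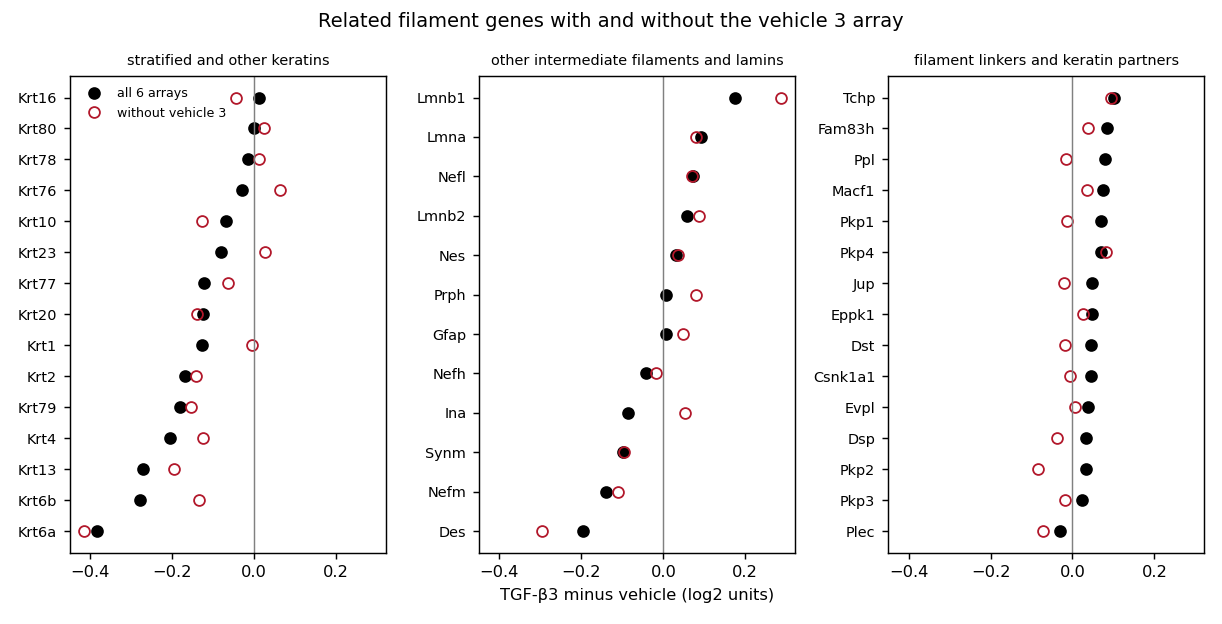
TGF-β3 minus vehicle difference in log2 units (x axis) of each gene in 3 sets of related filament genes. Filled points use all 6 arrays and open red points leave out vehicle 3. Of the 15 further keratins 14 lie below 0 with all arrays and 11 without vehicle 3, and of the 15 linker genes 1 and 9.

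Other filament genes and lamins split between the directions. Of 12 measured, 7 were higher and 5 lower (0 passed), with a median difference of 0.006. Without vehicle 3 the median was 0.051, with 4 of the 12 lower. Lmnb1, a lamin of the nuclear envelope, differed by 0.18 (SE 0.15), and by 0.287 without vehicle 3. The muscle filament gene Des differed by -0.20 (SE 0.14), and by -0.297 without vehicle 3. Nefm, a neurofilament subunit, differed by -0.14 (SE 0.09). Synm, which encodes a filament protein that copolymerises with vimentin and desmin, differed by -0.10 (SE 0.08), with every TGF-β3 array below every vehicle array.

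Linkers and partners of keratin filaments were slightly higher with all 6 arrays. Of 15 measured, 14 were higher and 1 lower (0 passed), with a median of 0.047. Tchp, a keratin-binding protein, differed by 0.10 (SE 0.08), Fam83h, a keratin-organising protein, by 0.08 (SE 0.08), the spectraplakin gene Macf1 by 0.07 (SE 0.08) and the desmosome-associated gene Pkp4 by 0.07 (SE 0.08). Without vehicle 3, Tchp differed by 0.095, Fam83h by 0.037, Macf1 by 0.036 and Pkp4 by 0.081. All 15 lay above the middle mark, where genes of similar signal had median differences of 0.090 to 0.097. Without vehicle 3, which leaves TGF-β3 3 without its same-numbered array, 9 of the 15 were lower and the median was -0.013. Within same-numbered pairs, 9 of the 15 were higher in all 3, as were 5003 of all 20848 genes. A common sign in either direction was seen in 42.0% of all genes. The part of vehicle 3 in this direction was not tested.

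Markers of lineage were read on the same arrays. Of 11 measured luminal markers, Epcam (9.92 ± 0.08 with TGF-β3 and 9.85 ± 0.06 with vehicle; SD, n = 3 each), Cdh1, Cldn3, Cldn4 and Gata3 lay above the upper mark, while Elf5 (5.10 ± 0.08 with TGF-β3 and 5.07 ± 0.14 with vehicle) and Pgr (4.91 ± 0.05 with TGF-β3 and 4.98 ± 0.06 with vehicle) lay near or below the lower one. None of the 8 basal and myoepithelial markers lay above the upper mark, with Acta2 at 5.37 ± 0.01 in TGF-β3 and 5.36 ± 0.19 in vehicle. With TGF-β3, 5 of the 8 were lower (4 of the 8 without vehicle 3), and 2 of the 8 were lower without overlap, beside 6.05% of all genes. These were the smooth muscle gene Cnn1 (4.87 ± 0.06 with TGF-β3 and 5.06 ± 0.09 with vehicle) and Trp63, a transcription factor of basal cells (6.29 ± 0.04 with TGF-β3 and 6.37 ± 0.01 with vehicle). Of the 11 luminal markers, 6 were higher and 5 lower (7 lower without vehicle 3). Among them, 1 was higher without overlap (Muc1, mean 5.96 with TGF-β3 and 5.82 with vehicle) and 1 lower (Kit, 5.26 and 5.38). Groups did not overlap in 12.9% of all genes. Foxa1, Esr1, Kit and Muc1 lay between the lower and upper marks. Of the 8 fibroblast markers, Col1a1 (9.22 ± 0.33 with TGF-β3 and 9.06 ± 0.44 with vehicle), Col1a2 and Pdgfrb (8.69 ± 0.26 with TGF-β3 and 8.42 ± 0.20 with vehicle) were above the upper mark, and Dcn and Lum below the lower one. The list means of the fibroblast markers were 6.54, 6.72 and 6.76 in TGF-β3 arrays 1, 2 and 3, against 6.51, 6.63 and 6.78 in the vehicle arrays with those numbers, so number 1 was lowest in each group. In the limma F test of number, 2 of these 8 (Col1a1 and Col1a2) passed, beside 1.18% of all genes. The part of these markers in the number differences of the 9 genes was not tested. The list means of the basal markers were 5.52 to 5.58 in TGF-β3 arrays and 5.54 to 5.63 in vehicle arrays. Endothelial, macrophage and adipocyte lists averaged 4.90 to 6.12 with TGF-β3 and 4.85 to 6.10 with vehicle. Of the 4 macrophage markers, 2 were higher and 2 lower with TGF-β3, and 0 passed. Csf1r (7.03 ± 0.23 with TGF-β3 and 6.67 ± 0.26 with vehicle) and Cd68 lay above the middle mark. Ptprc (5.23 ± 0.14 with TGF-β3 and 5.45 ± 0.18 with vehicle) lay below it, and Adgre1 below the lower mark. In bulk RNA, fewer cells of a type and less RNA per cell cannot be told apart.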

How the data were processed

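Arrays of the mouse whole-transcript Affymetrix design measured total RNA of 6 samples. Per the submitters' processing notes, the authors used RMA in Affymetrix Power Tools (version not given in the sources used here) and deposited log2 signals for 241576 probe sets. Array medians ran from 6.56 to 6.64. The vehicle 3 array had an SD over genes of 1.58, the other 5 arrays 1.68 to 1.74. Precision is limited by the number of arrays.

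Probe sets with 1 gene symbol (213361) were averaged per gene (20848 genes), after 2354 symbols were updated by synonym (RefSeq, GRCm38.p6). Groups came from sample titles. Differences, TGF-β3 minus vehicle, came from limma 3.58.1 under R 4.3.3 (lmFit, then eBayes, with no block), with Benjamini-Hochberg adjustment over all genes and a threshold of 0.05. An F test of title number, with treatment in the fit, used the same settings. Alternatives were a replicate block, other scalings and probe set summaries, a filter on low signal, other variance settings, array weights and left-out arrays. Scripts were tested on simulated data. Tables and figures used Python 3.11.15, pandas 2.3.3 and matplotlib 3.10.9.

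Across genes, same-numbered arrays of the 2 groups deviated together from their group's mean (r = 0.62, 0.41 and 0.22, all above 0.1), so the numbers were taken as pairs. TGF-β3 2 with vehicle 3 gave r = 0.17, close to the value for number 3, whose pairing is the least secure. The labels do not state whether samples were separate cultures beyond naming 3 experiments.

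Members, lists, tests and alternatives were chosen with earlier results of these data known. All 9 members were described, with the 4 genes of smallest p in each of 3 related lists, 3 pattern matches for each of 3 members, and Krt6b and Krt20, named after their values were seen. Prlr, a luminal marker, was not analysed here.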

Additional observations from a re-analysis of the deposited data

How the results depend on the processing

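No member passed in any of 161 combinations of member and alternative (lowest adjusted p 0.258, for Krt15 without the vehicle 1 array). Krt5, Krt7, Krt8 and Krt15 kept their sign in all of them. Signs turned in 15 combinations. Krt18 turned with the brightest probe set (0.002). Krt19 turned with the median probe set (0.160) or without both arrays numbered 2 (0.016) or 3 (0.020). Krt17 turned with median centring (-0.023), the median probe set (-0.117) or without both arrays numbered 3 (-0.008). Vim turned with the median probe set (0.129) or without both arrays numbered 2 (0.049). Leaving out TGF-β3 2 turned Krt14 (-0.012) and Krt19 (0.017), and leaving out vehicle 3 turned Krt19 (0.015). Krt17 turned without TGF-β3 1 (-0.029) or vehicle 2 (-0.0, rounded), and Vim without vehicle 2 (0.092). With the brightest probe set, Krt15 was -0.464 and Vim -0.437. With 1 array left out, the ranges were 0.025 to 0.106 for Krt8, -0.069 to -0.0 (rounded) for Krt18, -0.164 to -0.047 for Krt7, -0.111 to -0.035 for Krt5, -0.266 to -0.069 for Krt15, -0.041 to 0.017 for Krt19, -0.012 to 0.118 for Krt14, -0.029 to 0.095 for Krt17 and -0.131 to 0.092 for Vim. Over all genes, 2 passed with the replicate block and 2 without both arrays numbered 1, 0 to 1 with 1 array left out and 0 otherwise. The replicate block changed no call of a member (lowest adjusted p 0.423). The number test called 246 genes, 1748 with array weights, 4 with treatment left out, 9 with the median probe set and 0 with the brightest (2985 at an unadjusted p under 0.05). Luminal minus basal was 0.060 with the median and 0.086 with the brightest probe set, and -0.028 to 0.059 with 1 array left out. The offset of Krt8 over Krt18, an alternative set added after seeing the data, differed by 0.049 to 0.114. The causes were not tested.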
